A study of Arabidopsis thaliana with 6 samples.

Results

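AT1G23560, AT1G23570, AT1G23580 and AT1G23590 are 4 protein-coding genes of Arabidopsis thaliana that stand next to each other on chromosome 1, in a run of 4 annotated loci with no other locus between them. They were chosen by position and by these arrays' own values: each has a probe set that names it alone, and each stood at least 2-fold lower in ddm1 than in wild type buds. Their difference between the genotypes is therefore described here and not tested. They are 4 of the 13286 genes that the array annotation used here names by a probe set of their own. RefSeq's annotation of TAIR10.1 gives them no symbol, and what it says of their function was not used here. Their description as related genes comes from the choice of the run. That description was not checked, because no protein or DNA sequence was used. All 4 are read by plain _at probe sets, the class designed to match a single transcript, and 0 of the probe sets that list several genes include one of them. Whether a member's probes also bind RNA of another member was not checked, so the 4 readings may not be fully separate.

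RNA was measured in unopened flower buds of wild type Col plants and of ddm1 plants of inbred generation F6, with 3 biological replicates of each genotype on 6 one-colour arrays. The labels name no further allele, agent or treatment, and all plants were kept on soil at 23 °C under 18-hour days. The labels give no generation for the wild type plants, so the ddm1 mutation and the inbreeding history of the mutant line cannot be told apart. DDM1 itself was not analysed here, and the genotype labels could not be checked through its RNA.

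DDM1 is a chromatin remodelling protein that lets DNA methyltransferases reach nucleosome-bound DNA, and plants without it lose methylation and express transposable elements. Tandem gene runs arise by repeated local duplication, and neighbouring copies in plants are often expressed in the same tissues. A flower bud holds many cell types, including the tapetum, the cell layer that feeds developing pollen, and the pollen itself.

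The deposited values are log2 GCRMA expression values, shifted probe set by probe set to a baseline of its own (centred), so they hold differences between arrays but no level. Which of the 4 genes gives the most RNA, and whether any lay near background, is therefore unknown. Over all 22746 probe sets the median log2 difference between the genotypes was 0.00446. A bulk measurement cannot separate fewer cells of a type from less RNA per cell, which holds for every fall given here.

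AT1G23560, the first gene of the run, had centred log2 expression of 0.28, 0.00 and 0.18 in wild type replicates 1, 2 and 3. In ddm1 its values were -0.99, -0.88 and -0.76. The groups did not overlap, and 0.76 on the log2 scale separated the lowest wild type array from the highest ddm1 array. The mean was 0.15 ± 0.14 (SD, n = 3) in wild type and -0.88 ± 0.11 in ddm1, a log2 difference of -1.03 ± 0.09 (SE of the limma fit), or 2.04-fold lower. It was the member just inside the 2-fold limit.

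AT1G23570, the next gene, was nearly flat in wild type, with values of 0.04, 0.06 and 0.00. In ddm1 it read -1.40, -1.51 and -1.07, with replicate 2 the lowest and replicate 3 the highest. The genotypes were 1.07 apart at their closest, and the log2 difference was -1.36 ± 0.12 (SE), or 2.57-fold lower.

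AT1G23580 varied the most of the 4 genes within each genotype. It read 0.00, 0.40 and 0.26 in the wild type replicates, and its ddm1 values were -1.74, -1.29 and -0.97. Replicate 1 was the lowest array in each genotype, the groups did not overlap, and the SD within ddm1 was 0.38 (n = 3). The log2 difference of -1.55 ± 0.22 (SE) was the deepest of the 4, at 2.93-fold lower.

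AT1G23590, the last gene, was the steadiest in ddm1 and among the steadiest in wild type. It read 0.27, 0.30 and 0.34 in wild type. Its ddm1 values were -1.31, -1.10 and -1.18. The groups lay 1.37 apart at their closest, the widest gap in the run. The log2 difference was -1.50 ± 0.06 (SE), or 2.82-fold lower.

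**Figure D1:**
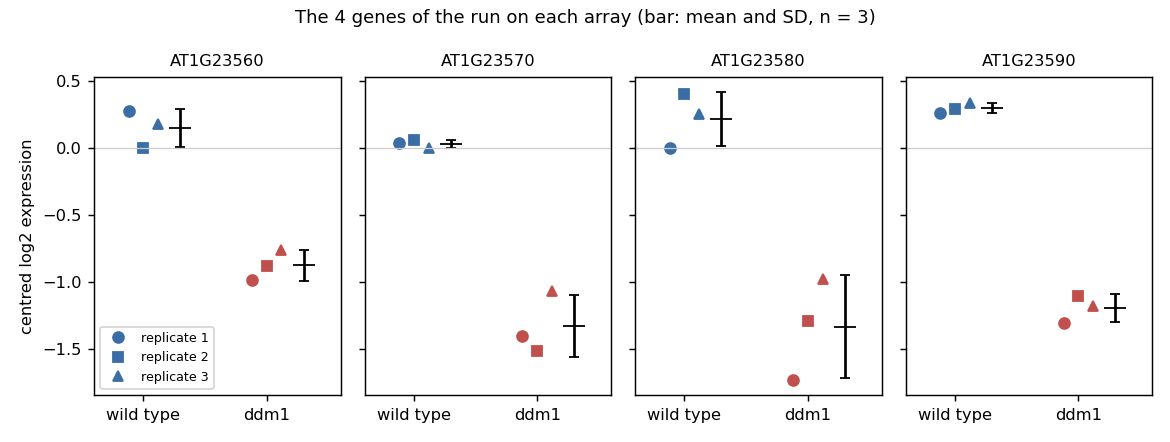
Centred log2 expression of the 4 genes on each array, with wild type in blue and ddm1 in red. Symbols mark replicates 1 to 3 and the black bars give the mean and SD (n = 3). In every panel the 3 ddm1 arrays lie below the 3 wild type arrays, with the smallest gap, 0.76, at AT1G23560 and the largest, 1.37, at AT1G23590.

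The 4 falls spanned 0.52 on the log2 scale, around a median of -1.43. Of the single-gene probe sets matched to RefSeq, 1.81% stood at least 2-fold lower in ddm1, the limit that chose these genes. In order of depth, AT1G23560 was shallower than AT1G23570 by 0.33 ± 0.15 (SE, taking the errors of both fits as independent). AT1G23570 and AT1G23590 then differed by 0.13 ± 0.13, and AT1G23590 and AT1G23580 by 0.06 ± 0.22. AT1G23560 was shallower than AT1G23590 by 0.47 ± 0.11.

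The mean of the 4 genes was 0.15, 0.19 and 0.19 on the wild type arrays, against -1.36, -1.20 and -0.996 on the ddm1 arrays. Its SD was 0.0267 in wild type and 0.181 in ddm1. In wild type some members deviated in opposite directions, as on replicate 1, with AT1G23560 at 0.12 and AT1G23580 at -0.22 from their means. Such deviations cancel in the mean and narrow its SD. By single gene, AT1G23560 varied less in ddm1 (SD 0.11) than in wild type (0.14), and the other members varied more in ddm1. AT1G23560, AT1G23580 and AT1G23590 were lowest on ddm1 replicate 1, and AT1G23560, AT1G23570 and AT1G23580 were highest on ddm1 replicate 3. Over the 6 arrays the 6 pairs of members had Pearson correlations of 0.945 to 0.982, which the difference between the genotypes largely sets. Once each genotype's mean was taken off, the correlations of the pairs ran from -0.124 (AT1G23570 with AT1G23590) to 0.661 (AT1G23580 with AT1G23590). These points share their arrays and number 6, so they describe these arrays only.

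The comparison of the flanking loci asks whether the lower RNA stops at the ends of the run. Position chose these loci, not their own values, so they were tested. That position was set by a run picked for its fall, so their share describes the surroundings of such a run. A locus counts as measured where the annotation used here names it alone for a probe set. The 10 nearest measured loci on each side carry 22 probe sets, since AT1G23440 and AT1G23640 have a pair each. Of the 22, 5 were lower in ddm1 and 0 higher by limma (Benjamini-Hochberg adjusted p under 0.05), or 22.7%, where 5.68% of all probe sets were lower and 3.5% higher. Of the 5, 4 were at least 2-fold lower, as were 1.72% of all probe sets. Those lower were AT1G23520 before the run and AT1G23650, AT1G23670, AT1G23690 and AT1G23700 after it. RefSeq gives no symbol for any of the 5, and what it says of their function was not used here.

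AT1G23520, 4 loci before AT1G23560, showed the deepest difference of the neighbourhood. It read 0.52, 0.43 and 0.16 in wild type and -2.04, -1.80 and -1.43 in the mutant, a log2 difference of -2.13 ± 0.18 (SE, adjusted p = 0.00251), or 4.37-fold lower. The groups lay 1.58 apart at their closest, more than for any member of the run. AT1G23520 was not called with the replicate number as a block (adjusted p = 0.0514).

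AT1G23650, 7 loci after AT1G23590, was nearly as deep. Its wild type values were 0.46, 0.18 and 0.00 and its ddm1 values -2.32, -1.86 and -1.30, with no overlap. The log2 difference was -2.04 ± 0.28 (SE, adjusted p = 0.0133), or 4.11-fold lower. It no longer passed when wild type replicate 1 was left out (adjusted p = 0.0557), with the replicate block (0.0884) or without variance moderation (0.0691).

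AT1G23670, 9 loci after the run, resembled the members in size. It read 0.32, 0.28 and 0.03 in wild type, against -1.37, -1.18 and -1.23 in ddm1, and the groups did not overlap. The log2 difference of -1.47 ± 0.10 (SE, adjusted p = 0.000887) was the flanking call that held under all 12 alternatives, with adjusted p-values up to 0.027.

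AT1G23690, 11 loci after the run, stood at 0.65, 0.12 and 0.00 in wild type, against -1.54, -1.35 and -1.20 in ddm1. The groups lay 1.20 apart, and the log2 difference was -1.62 ± 0.19 (SE, adjusted p = 0.00818), or 3.08-fold lower. The call was lost with the replicate block (adjusted p = 0.0738) and without variance moderation (0.0513).

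AT1G23700, the next locus, differed far less. Wild type arrays gave 0.44, 0.18 and 0.26 and ddm1 arrays -0.01, -0.07 and -0.15, and here replicate 3 was the lowest mutant array. The log2 difference was -0.37 ± 0.08 (SE, adjusted p = 0.0447). This call was lost under 10 of the 12 alternatives, among them every fit that left out an array (adjusted p 0.0547 to 0.12).

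**Figure D2:**
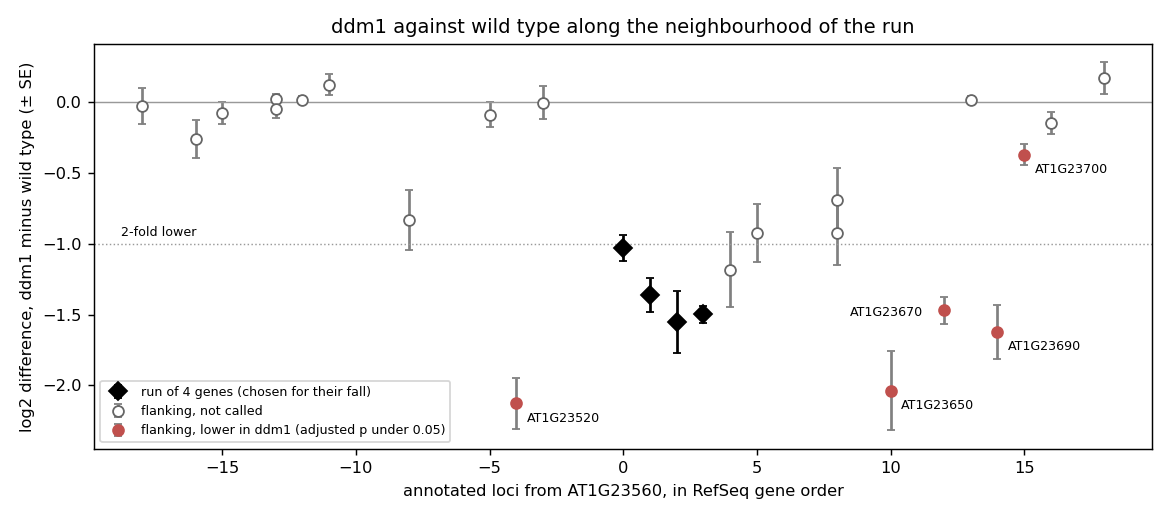
Log2 difference of ddm1 from wild type (± SE) for the 4 genes of the run (black diamonds) and the 22 flanking probe sets, placed by the number of annotated loci from AT1G23560. Red points passed the test and white points did not, and the dotted line marks a 2-fold fall. The red points lie at 1 locus before the run and 4 loci after it, from -2.13 at AT1G23520 to -0.37 at AT1G23700.

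The loci directly after the run had lower values in ddm1 on every array and did not pass the test. AT1G23600, the next gene, read 0.47, 0.07 and 0.33 in wild type, against -1.31, -1.002 and -0.36 in ddm1. Its log2 difference of -1.18 ± 0.26 (SE, adjusted p = 0.0544) was past the 2-fold limit that defines the run. It passed under 2 of the 12 alternatives, without ddm1 replicate 3, its highest mutant array (adjusted p = 0.0187), and with array weights (0.00557). Leaving out any other array gave 0.0976 to 0.168. AT1G23610 stood just outside the limit, at -0.93 ± 0.20 (adjusted p = 0.0531), with wild type values of 0.68, 0.00 and 0.28 and ddm1 values of -0.81, -0.63 and -0.38.

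Both probe sets of AT1G23640 gave the same picture. The log2 differences were -0.93 ± 0.22 (SE, adjusted p = 0.0708) and -0.69 ± 0.23 (adjusted p = 0.147), and neither probe set overlapped between the genotypes. AT1G23680, which lies between the called genes AT1G23670 and AT1G23690, stayed between -0.02 and 0.03 on all 6 arrays (0.01 ± 0.03). A probe set that flat may lie near background, and its level is unknown.

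On the other side of the run the values near AT1G23520 were small. AT1G23530, the measured locus closest to the run, gave -0.01 ± 0.12 (SE, adjusted p = 0.981), and AT1G23510 gave -0.09 ± 0.09 (adjusted p = 0.632). PERK12, a receptor-like kinase gene, and SRO2 lie between AT1G23530 and AT1G23560 and were not analysed here. CSLA03, a cellulose synthase-like gene 8 loci before the run, read 0.64, 0.00 and 0.47 in wild type, against -0.70, -0.19 and -0.50 in ddm1. Its groups did not overlap, and its log2 difference was -0.83 ± 0.21 (adjusted p = 0.0788). It passed under 1 of the 12 alternatives, without wild type replicate 2 (adjusted p = 0.0478), and leaving out any other array gave 0.0863 to 0.198.

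The 6 loci farther out on that side, AT1G23390 to AT1G23460, lay between -0.26 and 0.12 and overlapped between the genotypes at all 7 probe sets. They include INO, a YABBY transcription factor gene of the outer ovule integument, at -0.08 ± 0.08 (SE, adjusted p = 0.636). Beyond AT1G23700, AT1G23710 gave -0.15 ± 0.08 and AT1G23720 gave 0.17 ± 0.11, and neither passed. AT1G23460 and AT1G23720 are read by _s_at and _x_at probe sets, which may combine related transcripts.

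Counted by side, 4 of 11 probe sets after the run were lower (36.4%) and 1 of 11 before it (9.09%), with median log2 differences of -0.93 and -0.05. The difference between the sides was not tested. The groups did not overlap, with ddm1 lower, at 8 probe sets after the run and 2 before it, or 45.5% of the 22 against 16.7% of all probe sets. From AT1G23520 to AT1G23700, a stretch bounded by calls and so chosen after their values were seen, 8 of 10 measured flanking loci were lower in ddm1 on every array, the exceptions being AT1G23530 and AT1G23680. The stretch holds 20 annotated loci, 14 of them measured.

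**Figure D3:**
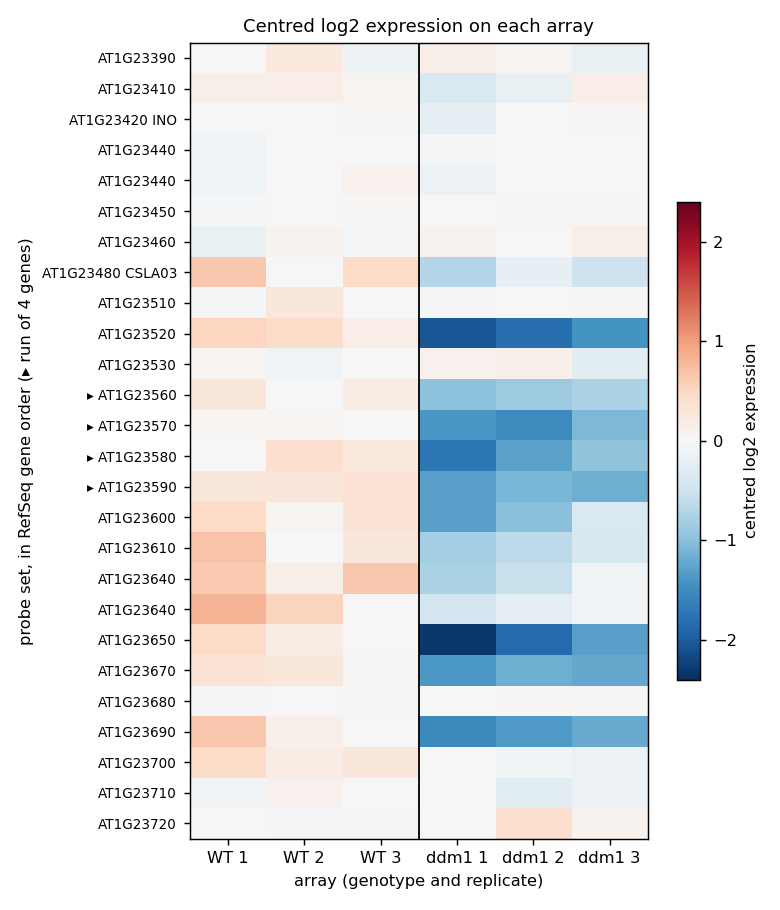
Centred log2 expression of each probe set on each of the 6 arrays, in RefSeq gene order, with the 4 genes of the run marked by triangles. Blue cells, which are low values, fill the ddm1 columns at CSLA03, at AT1G23520, at the run and at AT1G23600 to AT1G23690 except AT1G23680, and they are pale at CSLA03 and AT1G23640.

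Runs of lower neighbours were counted over all chromosomes as a description, since the 2-fold fall that chose the members is also what defines a run. A run was counted where consecutive measured loci, in RefSeq order, all stood at least 2-fold lower with every probe set. There were 207 single loci, 13 pairs, 1 run of 4 and 1 run of 5. The run of 5 was AT1G23560 to AT1G23600, which holds the 4 members and spans 5 annotated loci. The run of 4 was AT3G28780 to AT3G28840 on chromosome 3, whose median was -2.42 and which spans 8 annotated loci, 4 of them measured. At a limit of 1.5-fold the chromosome 1 run reached 9 measured loci out of 13 annotated, AT1G23560 to AT1G23670. The chromosome 3 run stayed at 4.

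The genes most like the run across the 6 arrays were sought over all chromosomes. Of the 608 probe sets outside the run that differed at least 2-fold in either direction, the 10 with the highest Pearson correlation reached 0.998 to 0.999. They lie on chromosomes 1 (3 genes), 3 (2), 4 (1) and 5 (4), with 0 among the flanking loci. The likeness describes 6 arrays on which the genotypes stand apart. Choosing the highest correlations fixes that these genes share the direction of the run, and it favours those that share its order on the ddm1 arrays. The order on the wild type arrays was not always shared. AT1G06170, for example, was lowest on wild type replicate 3, where the mean of the run was not.

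AT1G06170 was the nearest of the 10 in size, with a root mean square distance of 0.0432 on the log2 scale after the wild type means were aligned. It read 0.27, 0.30 and 0.24 in wild type, against -1.32, -1.06 and -0.95 in ddm1. AT3G52130, at a distance of 0.0740, read 0.58, 0.59 and 0.57 in wild type, against -1.09, -0.84 and -0.70 in ddm1.

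The highest correlation, 0.9994, belonged to AT1G10770, whose log2 difference was -1.79. The other 7 were AT4G10060 (log2 difference -3.76), AT1G30350 (-1.74), AT5G50030 (-1.58), AT5G48140 (-1.91), AT3G28750 (-2.30), AT5G45880 (-1.93) and AT5G07430 (-2.49). AT5G45880 is also in the list of pollen markers. Among the same 608 probe sets, the flanking locus AT1G23520 ranked 35 in likeness (Pearson correlation 0.993), AT1G23670 ranked 84, AT1G23650 ranked 89, AT1G23690 ranked 136 and AT1G23600 ranked 178.

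Some markers of pollen and tapetum were lower in ddm1 and others were not called. The marker lists were chosen with earlier results of these data known. Setting their counts beside the share over all probe sets is therefore no independent test, and the counts describe the listed genes only. Of 13 measured pollen genes, out of 15 listed, 6 were lower and 0 higher by limma, where 5.68% of all probe sets were lower and 3.5% higher, and the median log2 difference was -0.65. Of 3 measured tapetum genes, out of 8 listed, 2 were lower and 0 higher, with a median of -1.08. The pollen genes called were AtVEX1 (-3.61), AT3G01270 (-2.37), AT5G45880 (-1.93), the reproductive actin ACT12 (-1.78) and the MADS-box regulators AGL30 (-0.81) and AGL66 (-0.65). AGL30 did not pass when wild type replicate 3 was left out (adjusted p = 0.0576), with the replicate block (0.0538) or without variance moderation (0.081). Of the pollen genes not called, ACT11 (0.03), ANX1 (0.01), ANX2 (-0.01), AT1G01310 (-0.02) and AT2G46360 (-0.03) overlapped between the genotypes, and AGL104 (-0.72) and AGL65 (-0.10) did not. AMS, a regulator of tapetum development, stood at -1.23 ± 0.08 (SE), AT5G07230 was also called (-1.08), and the sporogenesis regulator SPL was not (-0.82).

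The pollen list averaged 0.0386, 0.0623 and 0.0288 on the wild type arrays, against -1.01, -0.828 and -0.799 on the ddm1 arrays. The tapetum list averaged 0.146, 0.332 and 0.168 in wild type, against -1.04, -0.657 and -0.792 in ddm1. Both lists, like the mean of the run, were lowest on ddm1 replicate 1. Among the ddm1 arrays, the run and the pollen list were highest on replicate 3 and the tapetum list on replicate 2. The part of these cell types in the lower values of the run was not tested.

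Of 3 measured floral organ genes, out of 7 listed, 0 were called by limma, and their median log2 difference was 0.0025. They were UFO (0.0025), INO (-0.08), which is also a flanking locus, and SPT (0.29, adjusted p = 0.178), whose groups did not overlap. AG, AP3, PI and SEP3 were listed and not measured, so floral organ content was not assessed. Of 3 green tissue genes 1, the antenna protein gene LHCB4.2, was higher in ddm1 by limma, where 3.5% of all probe sets were higher. LHCB4.1 (0.35, adjusted p = 0.0738) and RCA (0.20, adjusted p = 0.0771) were not called, and the median of the 3 was 0.35. LHCB4.2 did not pass under 5 of the 12 alternatives, among them the replicate block (adjusted p = 0.0896) and leaving out replicate 1 or 2 of wild type (0.0576 and 0.0551) or replicate 2 of ddm1 (0.0509). The centred values hold no level, so the labelled tissue could not be checked by the presence of its markers, and no marker can be said to be absent.

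**Figure D4:**
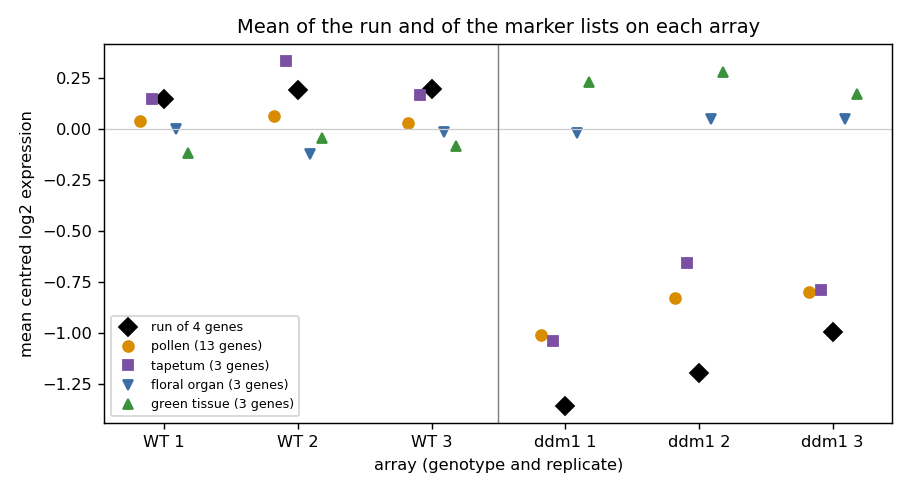
Mean centred log2 expression of the run and of the 4 marker lists on each array. In ddm1 the run (-1.36 to -0.996), the pollen list (-1.01 to -0.799) and the tapetum list (-1.04 to -0.657) lie below their wild type values, and the floral organ and green tissue lists do not.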

How the data were processed

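Expression was measured on 6 one-colour arrays, and per the submitters' processing notes the authors used GCRMA to make the deposited log2 values (version not given in the sources used here). Each probe set is centred on a baseline not given there, 83.7% hold an exact 0 on at least 1 array, values run from -10.0 to 8.57, and the log base was inferred from GCRMA. Signal over background is unknown.

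After 64 control probe sets were left out, limma 3.58.1 in R 4.3.3 (lmFit, eBayes, genotype only) was run on 22746 probe sets. P-values are two-sided and Benjamini-Hochberg adjusted, called under 0.05. The fit was tested on simulated data. Nothing says whether replicates came from separate plantings, so p-values measure the spread between these arrays.

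GEO's platform annotation named 1 gene for 13513 probe sets, and 13436 matched TAIR10.1, which gave gene order. It named no gene for 8730 probe sets, so a locus or marker that counts as unmeasured may still have a probe set. No coordinates are printed, since no build is stated for the array. Named are the members, the 10 measured loci on each side, the 10 genes most correlated with the run, and marker genes. The members and lists were chosen with earlier results of these data known. The planned comparison of protein relatives was not run, because no protein sequences were used. Alternatives were array centring, leaving out arrays, a replicate block, other variance models, array weights, plain _at probe sets, and wider or narrower flanks.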

Additional observations from a re-analysis of the deposited data

How the results depend on the processing

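The 4 members stood at -0.97 to -1.73 over the 8 alternatives run for them; their groups do not overlap, so leaving out an array could not turn their direction. The median of the members ran from -1.499 to -1.339 when 1 array was left out. For the 22 flanking probe sets, the call was the same for 235 of 262 values, 16 no longer passed, 11 newly passed and 0 passed with the opposite sign. Lower flanking calls numbered 3 to 6 when 1 array was left out (3 without wild type replicate 1). They numbered 2 without variance moderation and 11 with array weights (and 1 higher). With 5 measured loci on each side 3 of 11 probe sets were lower, and with 20 it was 8 of 42 (and 1 higher), where the main fit gave 5 of 22. The array weights gave ddm1 replicate 2 a weight of 5.59. The flank sizes change how many loci were tested; for the other settings the cause was not tested.

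Over all probe sets, 629 to 1011 were lower and 432 to 788 higher when 1 array was left out. They numbered 429 and 373 without variance moderation (222 lower at least 2-fold), and 3597 and 2185 with array weights. At a 1.5-fold limit there were 4 runs of at least 3 loci, where a 2-fold limit gave 2.

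The labels do not say that the replicate numbers pair the arrays. Deviations of same-numbered arrays correlated at 0.0752, 0.09 and 0.0159, and differently numbered ones at -0.0907 to 0.0229. With a replicate block, 1 flanking probe set was lower (AT1G23670), and over all probe sets 553 were lower and 433 higher (226 of them lower by 2-fold or more). Of these 986, 864 were also called in the fit with no block, which called 2086.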

Other observations

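Beyond the 10 measured loci on each side, 4 of 20 probe sets were called, AOR as higher and the rest as lower. Over all probe sets 5.68% were lower and 3.5% higher. These values belong to no comparison above. Before the run, AT1G23240 stood at -1.41 ± 0.15 (SE, adjusted p = 0.00529) and AT1G23340 at -0.59 ± 0.11 (adjusted p = 0.0326). The first was not called with the replicate block (adjusted p = 0.0664), and the second under 7 of 12 alternatives, including the block (0.118) and 5 of the 6 ways to leave out 1 array (0.0817 to 0.103). AT1G23250, the locus next to AT1G23240, gave -1.24 ± 0.28 and was not called (adjusted p = 0.057). After the run AT1G23880 was lower, at -1.28 ± 0.27 (adjusted p = 0.0482), and AOR, a chloroplast alkenal reductase gene, was higher at 0.37 ± 0.06 (adjusted p = 0.0227). The AT1G23880 call was lost under 11 of 12 alternatives (adjusted p 0.0502 to 0.154) and held without ddm1 replicate 2. The AOR call was lost under 6, including the block (0.0717), and without wild type replicate 1 (0.0818), ddm1 replicate 1 (0.0651), ddm1 replicate 2 (0.0722) or ddm1 replicate 3 (0.068). AT1G23840 varied among the ddm1 arrays and was not called (0.53 ± 0.36).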
